A study of Mus musculus with 8 samples.

Results

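The chaperones of the lumen of the endoplasmic reticulum (ER) were followed here in mouse kidney under BRD4780, a compound whose known target is TMED9, a cargo receptor of the early secretory pathway. The set is 10 genes named by symbol: Hspa5, Hyou1, Dnajb11, Dnajc3, Sdf2l1, Hsp90b1, Calr, Canx, Manf and Creld2. Each symbol was found once among 21759 genes of the deposited count table, and all 10 passed the filter on low counts. The mice were male knock-in animals, 8 months old, of a MUC1 kidney disease model, and both groups carried the knock-in. One group of 4 received saline as vehicle and the other group of 4 received BRD4780 at 50 mg/kg (named AGN50 in the sample titles), each daily for 7 days, and no wild-type library was analysed here. RNA was taken from a slice of kidney, so every value is a mixture over all kidney cell types. In such bulk RNA, fewer cells of a type and less RNA per cell cannot be told apart.

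Secreted and membrane proteins enter the ER unfolded and are held there by chaperones until they are folded. BiP, the HSP70 protein of the lumen encoded by Hspa5, binds exposed hydrophobic stretches with the help of J-domain proteins and nucleotide exchange factors, GRP94 takes over later steps for selected clients, and the lectins calnexin and calreticulin hold glycoproteins. When unfolded protein builds up, the unfolded protein response (UPR) raises transcription of most of these genes through ATF6 and XBP1, while its PERK arm acts through ATF4 on a different set of genes. BiP in turn binds the UPR sensors.

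The regulatory sequence that ties these genes together is the ER stress response element (ERSE), in which a CCAAT box, bound by NF-Y, lies a fixed distance from CCACG, contacted by ATF6. RefSeq promoter windows on GRCm38.p6 (mm10), running from 250 bases before to 50 bases after the start site, were found for 8 of the 10 genes, all but Hyou1 and Manf. The exact element, CCAAT and 9 bases of any kind and CCACG, was found on either strand in 6 of these 8 windows, and in 39 of 32851 windows of the same length across the table (0.119%). The 39 include these 6. The element was searched because it is known for these genes, so the contrast is a description and no test. The related element ERSE-II, with ATTGG and 1 base of any kind before CCACG, was found in 1 of the 8, that of Dnajb11, and in 0.0365% of all windows. The ERSE sites are set out below to show how far the spacer differs while the fixed letters, in capitals, do not. Each is written 5′ to 3′ on the strand that carries the motif, with 3 bases on either side.
Hspa5: tcaCCAATcggaggcctCCACGacg
Hsp90b1 upstream site: agcCCAATcgcaaggagCCACGctt
Hsp90b1 downstream site: tcaCCAATcgtgcctcaCCACGcac
Calr: gggCCAATgagggtcgaCCACGcgt
Canx: tgaCCAATcaccacgctCCACGaag
Dnajc3: caaCCAATcagcgccaaCCACGacc
Creld2: ggaCCAATtgaggctcgCCACGaga
The ERSE-II site of Dnajb11, at bases 7 to 17 after the start, was the only one of these elements downstream of the start.
Dnajb11: gcgATTGGcCCACGcct
Hsp90b1 was the only one of the 8 genes with 2 exact ERSE sites in its window. Sdf2l1 had no exact match to either element in its window. It did hold ERSE-II with 1 fixed letter changed, at -149 to -139. Such a match was in 3 of the 8 windows (Hspa5, Sdf2l1 and Creld2) and in 1.12% of all windows.

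The window of Hspa5, the reference gene of the family, carried its exact ERSE match at bases -65 to -47 from the start (chr2:34771840-34772139, plus strand). It also held the sole match among the 8 windows to TGACGTG, a core bound by XBP1 and ATF6, at bases -157 to -151; 2.01% of all windows hold those letters.
Hspa5: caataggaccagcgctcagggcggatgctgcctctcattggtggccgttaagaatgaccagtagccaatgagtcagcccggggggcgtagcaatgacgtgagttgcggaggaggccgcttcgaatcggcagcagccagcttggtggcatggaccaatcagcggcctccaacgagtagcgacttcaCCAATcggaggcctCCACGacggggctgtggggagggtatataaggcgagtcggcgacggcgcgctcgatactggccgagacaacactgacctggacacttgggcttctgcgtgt
Calr and Dnajb11 are shown beside it because they were the members in which the groups of libraries did not overlap. The Calr window (chr8:84846882-84847181, minus strand) carried the ERSE on the opposite strand at -162 to -144.
Calr: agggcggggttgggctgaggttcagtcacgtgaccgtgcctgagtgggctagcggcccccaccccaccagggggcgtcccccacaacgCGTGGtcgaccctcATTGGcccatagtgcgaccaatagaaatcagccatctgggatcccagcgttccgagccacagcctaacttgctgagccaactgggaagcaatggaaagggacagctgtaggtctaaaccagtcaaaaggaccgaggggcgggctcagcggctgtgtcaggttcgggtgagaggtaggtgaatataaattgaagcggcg
The Dnajb11 window (chr16:22857595-22857894, plus strand) carried the ERSE-II element after the start.
Dnajb11: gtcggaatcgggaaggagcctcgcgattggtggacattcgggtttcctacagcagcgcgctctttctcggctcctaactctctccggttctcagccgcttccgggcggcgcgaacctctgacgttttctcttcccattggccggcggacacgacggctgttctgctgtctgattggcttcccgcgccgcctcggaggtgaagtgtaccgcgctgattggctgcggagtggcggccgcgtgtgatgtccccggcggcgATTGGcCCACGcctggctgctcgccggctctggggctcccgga
Capitals mark the fixed letters of ERSE or ERSE-II. A CCAAT box on either strand, alone or as part of an ERSE or ERSE-II, was present in all 8 windows, from 2 in Calr and Dnajc3 to 6 in Hsp90b1, against 37.4% of all windows with at least 1. The ATF4 and C/EBP type letters TGATGNAAN were in none of the 8 windows and in 3.95% of all windows. These are matches of letters only, and binding was not measured.

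**Figure D1:**
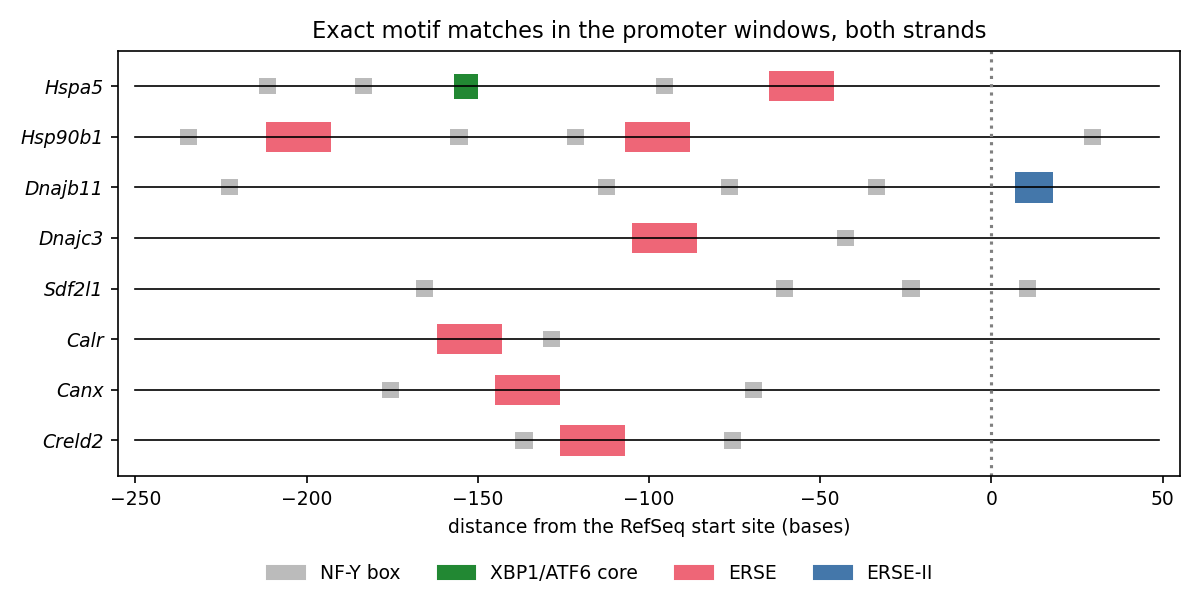
Exact motif matches on either strand in the 8 promoter windows; the x axis is the distance in bases from the RefSeq start site (dotted line), each row is a gene, and boxes mark the CCAAT (NF-Y) box, the XBP1/ATF6 core, ERSE and ERSE-II. ERSE boxes stand upstream of the start in 6 genes, the ERSE-II box of Dnajb11 stands after it, and Sdf2l1 has NF-Y boxes alone.

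Library totals ranged from 16.6 M to 28.5 M expected counts with vehicle and from 5.74 M to 28.2 M with BRD4780, the lowest being BRD4780 replicate 4. The least abundant member, Sdf2l1, still had 68 counts there. On the first principal component (39.3% of the variance of the 1000 most variable genes) BRD4780 replicate 3 stood at -3.49, between the vehicle libraries at -21.2 to -12.3 and the other treated ones at 16.8 to 32.9. Values below are CPM, the counts scaled to a common library total after TMM, as mean ± SD over 4 mice per group (n = 4), and log2 fold changes are BRD4780 over vehicle with a 95% interval from edgeR's quasi-likelihood fit across 13474 genes. Of these genes 2.3% were called higher and 0.623% lower at an adjusted p under 0.05.

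None of the 10 chaperone genes was called in either direction. All 10 log2 fold changes were nonetheless negative, from -0.66 for Sdf2l1 to -0.03 for Dnajc3, with a median of -0.37 beside 0.01 over all genes tested, of which 48.4% were negative. At an unadjusted p under 0.05, 6 of 10 were lower and 0 higher (Calr, Hyou1, Dnajb11, Creld2, Sdf2l1 and Manf), where 10.7% of all genes were lower. DESeq2 called those 6 lower and 0 higher, with adjusted p from 0.00157 for Calr to 0.0394 for Manf, and called 3.8% of all genes lower. The 10 genes share regulators and libraries and are not 10 independent observations.

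The count of calls depended on single libraries. Without vehicle replicate 4, 1 member (Creld2) was called lower, against 0.417% of all genes. Without BRD4780 replicate 3, 4 members (Calr, Hyou1, Dnajb11 and Creld2) were called lower, but so were 11.3% of all genes. Leaving out vehicle replicate 4 and BRD4780 replicate 4 together, an alternative added after the values were seen, gave 2 members lower (Sdf2l1 and Manf), against 0.103% of all genes, and a median of -0.55. These 2 libraries were picked after they were seen to be the lowest vehicle and highest treated libraries in these genes. A more negative median was fixed by that choice, and neither it nor the 2 calls support anything. Without any other single library the count was 0.

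**Figure D2:**
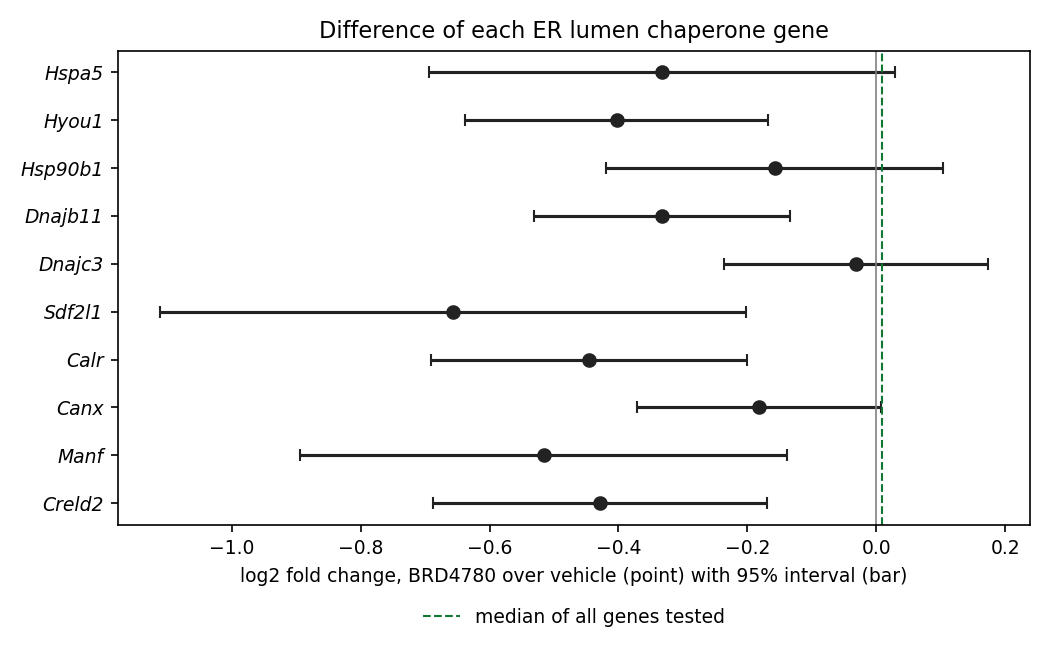
Log2 fold change of each chaperone gene, BRD4780 over vehicle (x axis; points), with its 95% interval (bars); the dashed line is the median of all genes tested, 0.01. All 10 points lie below 0, and the intervals of Hspa5, Hsp90b1, Canx and Dnajc3 reach past it.

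The HSP70 machine of the lumen comes first. Hspa5 (chromosome 2, 34771970 to 34777547, plus strand, mm10) encodes BiP. With vehicle it stood at 625.0, 619.2, 581.7 and 457.2 CPM in replicates 1 to 4, and with BRD4780 at 357.5, 472.7, 389.0 and 596.0 CPM. The groups overlapped, since vehicle replicate 4 lay below 2 treated libraries and BRD4780 replicate 4 lay above 2 vehicle libraries. Its means were 570.8 ± 78.1 and 453.8 ± 106.5 CPM, with a log2 fold change of -0.33 (95% interval -0.69 to 0.03, adjusted p = 0.233). The data therefore allow anything from 0.618 to 1.02 of the vehicle level for BiP mRNA.

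Hyou1 (chromosome 9, 44379490 to 44392369, plus strand) encodes GRP170, a large HSP70-related protein that exchanges nucleotide on BiP. It stood at 114.0, 114.4, 111.6 and 91.9 CPM with vehicle and at 73.1, 89.3, 73.3 and 92.0 CPM with BRD4780. Vehicle replicate 4 and BRD4780 replicate 4 were level, and every treated library lay below the other vehicle libraries. For Hyou1 the fitted log2 fold change was -0.40 (95% interval -0.64 to -0.17, adjusted p = 0.0684).

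Dnajb11 (chromosome 16, 22857845 to 22879634, plus strand) encodes ERdj3, a soluble J-domain protein that hands unfolded clients to BiP and can be secreted with them. It stood at 127.1, 136.0, 118.4 and 115.3 CPM with vehicle and at 92.3, 90.05, 101.4 and 111.9 CPM with BRD4780. All treated libraries lay below all vehicle libraries, with a gap between BRD4780 replicate 4 and vehicle replicate 4 that was small beside the spread within groups. Dnajb11 had a log2 fold change of -0.33 (95% interval -0.53 to -0.13, adjusted p = 0.0722).

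Sdf2l1 (chromosome 16, 17130138 to 17132383, minus strand), whose product forms a complex with ERdj3, was the scarcest member. It stood at 13.2, 12.7, 13.8 and 8.67 CPM with vehicle and at 7.08, 6.81, 6.46 and 11.4 CPM with BRD4780. The treated libraries 1 to 3 lay close together below every vehicle library, while BRD4780 replicate 4 lay above vehicle replicate 4 and below the other vehicle libraries. Its log2 fold change of -0.66 was the most negative of the set and its interval the widest (-1.11 to -0.20, adjusted p = 0.0965).

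Dnajc3 (chromosome 14, 118937976 to 118981697, plus strand) encodes p58IPK, also called ERdj6, a J-domain co-chaperone first described as an inhibitor of eIF2alpha kinases. Mean levels were 132.0 ± 7.1 CPM in the vehicle group and 129.5 ± 15.4 CPM in the treated group, and the groups overlapped along most of their range. The lowest library was BRD4780 replicate 1 at 111.0 CPM and the highest was BRD4780 replicate 4 at 148.8 CPM. The log2 fold change of -0.03 had an interval of -0.24 to 0.17 (adjusted p = 0.866), and its sign turned in 4 of 17 alternative settings. Dnajc3 carries an exact ERSE and was near 0, while Sdf2l1 carries no exact one in its window and had the most negative value. Whether members differ from each other in response was not tested.

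Hsp90b1 (chromosome 10, 86690209 to 86705509, minus strand) encodes GRP94, the HSP90 protein of the lumen, which folds integrins and Toll-like receptors among other clients. Its exons overlap those of 1810014B01Rik on the opposite strand over 415 bases and those of 2 genes on its own strand over 217 bases. The strand setting of the counting is unknown, so its counts are uncertain over these stretches. It stood at 646.4, 622.2, 586.1 and 510.9 CPM with vehicle and at 505.9, 526.5, 453.6 and 636.0 CPM with BRD4780. BRD4780 replicate 4 was the second highest of all libraries, and the groups overlapped. Its log2 fold change was -0.16 (95% interval -0.42 to 0.10, adjusted p = 0.425).

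**Figure D3:**
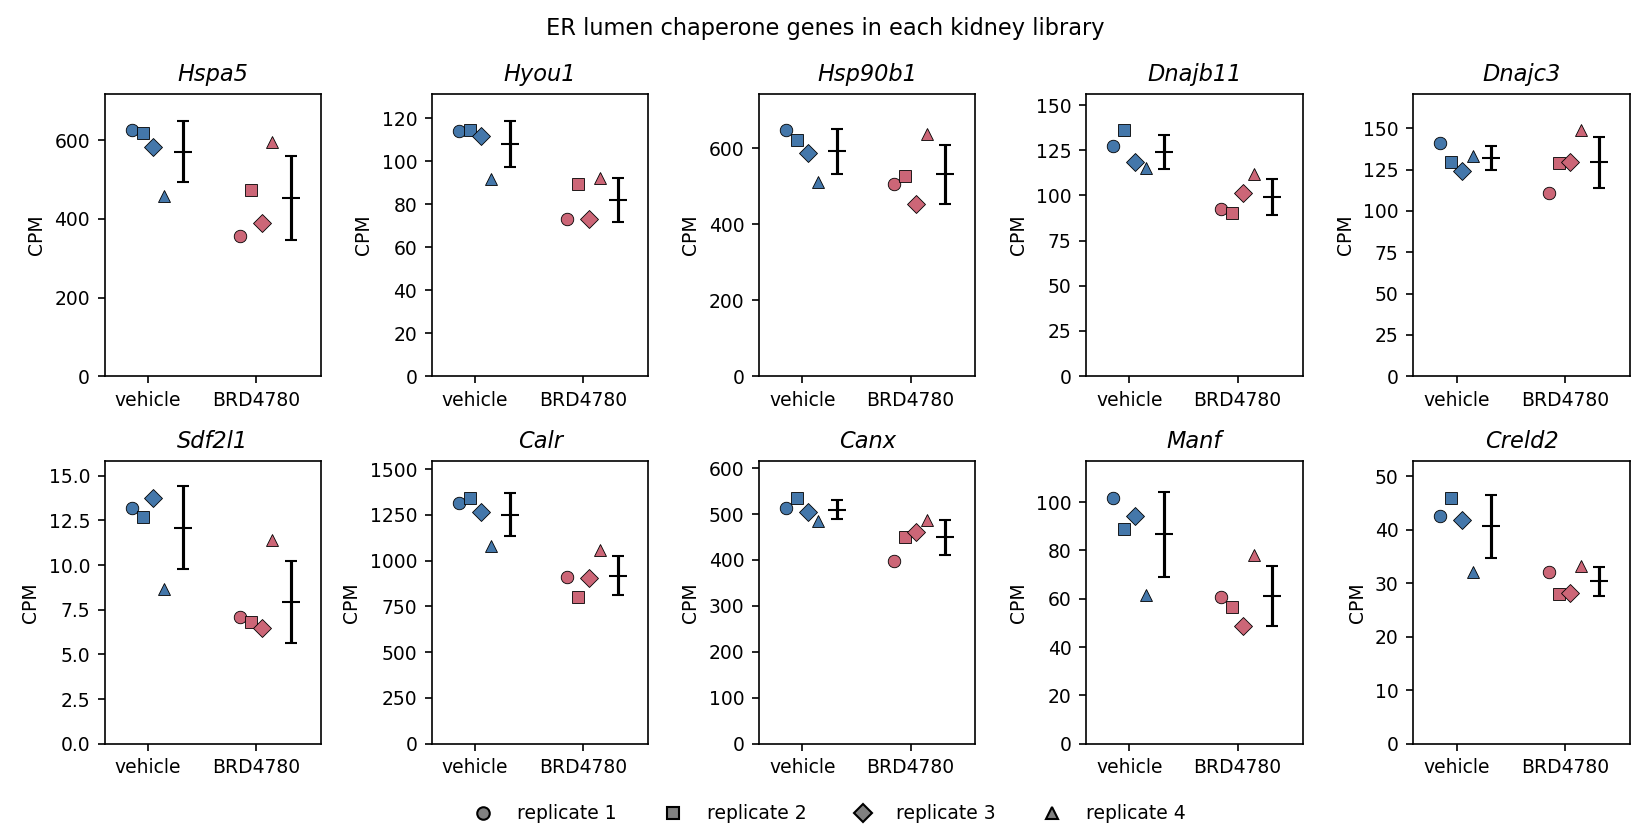
Expression of each chaperone gene in CPM (y axis, starting at 0) in the 4 vehicle and 4 BRD4780 libraries; symbols give the replicate number, which pairs nothing, and bars the mean ± SD. Replicate 4 of the vehicle group is below its group mates in all genes but Dnajc3, and replicate 4 of the BRD4780 group is above its group mates in every gene.

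The lectin chaperones bind the trimmed sugar that marks a glycoprotein as still folding. Calr (chromosome 8, 84841850 to 84846934, minus strand), which encodes calreticulin, the soluble lectin and a major calcium store of the lumen, had the highest level of the set. It stood at 1312.9, 1343.4, 1266.0 and 1081.0 CPM with vehicle and at 910.4, 800.8, 905.5 and 1058.7 CPM with BRD4780. Every treated library lay below every vehicle library, although replicate 4 of the groups nearly met. The log2 fold change was -0.45 (95% interval -0.69 to -0.20, adjusted p = 0.0589), or 0.734 of the vehicle level. Calr and Dnajb11 were the 2 of 10 members with groups that did not overlap, both lower, where 5.16% of all genes had groups apart in that direction.

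Canx (chromosome 11, 50293961 to 50325673, minus strand) encodes calnexin, the membrane-bound partner of calreticulin. It stood at 513.3, 535.3, 505.0 and 484.2 CPM with vehicle and at 398.1, 450.4, 461.0 and 488.1 CPM with BRD4780. The groups overlapped through BRD4780 replicate 4 alone. Canx had a log2 fold change of -0.18 (95% interval -0.37 to 0.01, adjusted p = 0.217), a narrower interval than that of any other member. Whether the difference was larger in the soluble lectin than in the membrane one was not tested.

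Manf and Creld2 encode small ER proteins that are secreted under stress. Manf (chromosome 9, 106838312 to 106891979, minus strand) encodes a neurotrophic factor of the lumen that binds BiP. Its exons overlap those of 4930524O07Rik and Dcaf1 on the opposite strand over 312 bases and those of 1 gene on its own strand over 14 bases, with the same uncertainty. It stood at 101.7, 88.9, 94.4 and 61.4 CPM with vehicle and at 60.8, 56.7, 48.9 and 78.0 CPM with BRD4780. Vehicle replicate 4 lay within the treated range and BRD4780 replicate 4 above it. The log2 fold change was -0.52 (95% interval -0.89 to -0.14, adjusted p = 0.108).

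Creld2 (chromosome 15, 88819646 to 88826683, plus strand) encodes a cysteine-rich, EGF-like domain protein of the ER. It stood at 42.6, 46.0, 41.8 and 32.1 CPM with vehicle and at 32.1, 27.9, 28.1 and 33.3 CPM with BRD4780. Vehicle replicate 4 lay among the treated libraries, and the other vehicle libraries lay above all of them. For Creld2 the log2 fold change was -0.43 (95% interval -0.69 to -0.17, adjusted p = 0.0735).

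**Figure D4:**
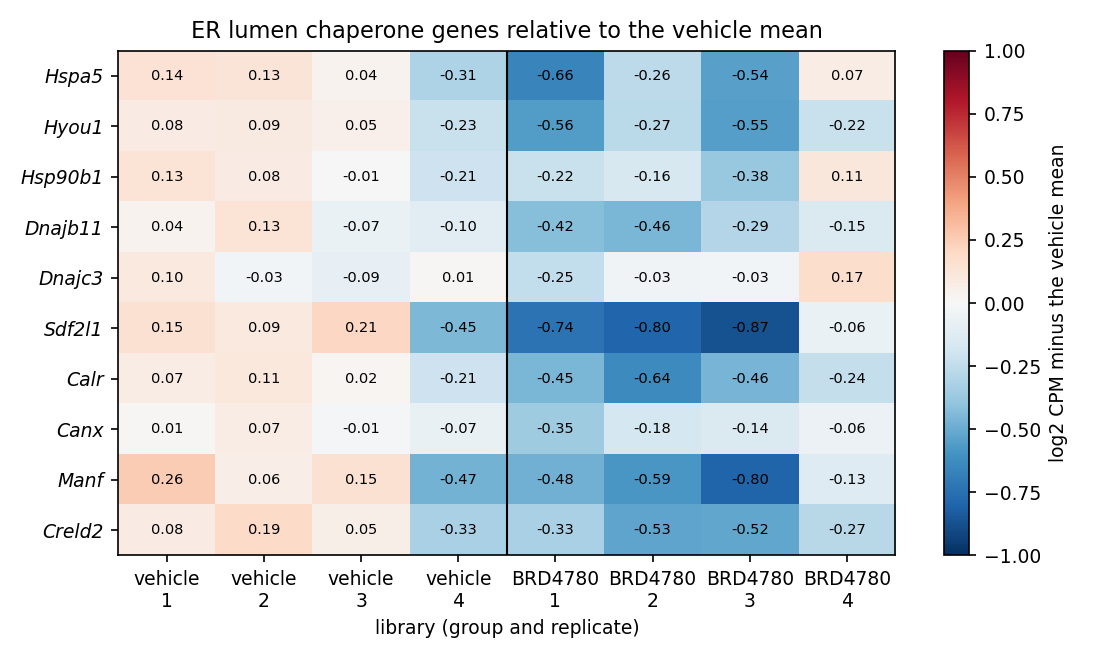
Difference of each library (columns) from the vehicle mean for each chaperone gene (rows), in log2 CPM, with the value printed in each cell and red above and blue below the vehicle mean. BRD4780 replicates 1 to 3 are below 0 in all 10 genes, vehicle replicate 4 is below 0 in all but Dnajc3, and BRD4780 replicate 4 is the highest treated library in each.

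Read by library, the 10 genes shared much of their order. The mean over the 10 genes, in log2 CPM relative to the vehicle mean, was 0.11, 0.09 and 0.04 in vehicle replicates 1 to 3 and -0.24 in vehicle replicate 4. It was -0.45, -0.39 and -0.46 in BRD4780 replicates 1 to 3 and -0.08 in BRD4780 replicate 4. Vehicle replicate 4 thus lay below BRD4780 replicate 4, and the groups overlapped in this mean. The lowest library was a treated one in all 10 genes (replicate 1 in 4, replicate 2 in 3 and replicate 3 in 3), and the highest was a vehicle library in 9, Dnajc3 being the exception. Over the 8 libraries, Pearson's r between pairs of members ranged from 0.13 to 0.97 with a median of 0.83 over 45 pairs, and within groups from 0.023 to 0.95 with a median of 0.69; these describe shared libraries and carry no test. The genes whose log2 CPM was most like that of Hspa5 over the 8 libraries, among 9263 well-expressed genes, were Fa2h (r = 0.97), Calm2 (r = 0.96), Dag1 (r = 0.95), Gipc1 (r = 0.95) and Hoxb7 (r = 0.95). Hyou1 and Hsp90b1 were the nearest members, at rank 15 and 18.

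Per kilobase of transcript, the vehicle levels spanned a wide range. Calr stood at 572.7 ± 53.9 CPM per kilobase, followed by Hsp90b1 at 209.3 ± 20.9, Hspa5 at 181.6 ± 24.9 and Canx at 126.4 ± 5.2. Hsp90b1 was above Hspa5 in each vehicle library, and whether they differ was not tested. Dnajb11 at 64.4 ± 4.8 and Manf at 54.0 ± 10.96 CPM per kilobase overlapped in mean ± SD, as did Creld2 at 29.7 ± 4.4, Dnajc3 at 25.7 ± 1.4 and Hyou1 at 24.4 ± 2.4. The genes were measured in the same libraries, and differences within libraries were not tested. Sdf2l1 was lowest at 10.9 ± 2.1 CPM per kilobase. With BRD4780 the levels were 420.7 ± 48.6 for Calr, 187.8 ± 27.2 for Hsp90b1 and 144.4 ± 33.9 CPM per kilobase for Hspa5.

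Thick ascending limb (TAL) markers were ordered over the libraries much as the chaperones were. The mean of 12 such markers, on the same scale, was 0.13, 0.08, -0.05 and -0.16 in vehicle replicates 1 to 4 and -0.44, -0.58, -0.64 and -0.11 in BRD4780 replicates 1 to 4, so that replicate 4 was again the lowest vehicle and the highest treated library. The summed level of the TAL list was 4108 to 5290 CPM with vehicle and 2882 to 4449 CPM with BRD4780, and 3 of 12 were called lower. The part of the TAL in the chaperone values was not tested. Plasma cell markers, a cell type rich in these chaperones, summed to 35.2 to 44.9 CPM with vehicle and 36.2 to 41.8 CPM with BRD4780 over 7 genes in the table, with 0 of 6 tested called. Podocyte markers, with 4 of 12 higher, summed to 150.4 to 245.7 and 313.9 to 426.2 CPM, and endothelial markers, with 4 of 15 higher, to 249.7 to 453.6 and 519.3 to 673.7 CPM; vehicle replicate 4 was lowest of all libraries in the mean of both. In leukocyte and erythrocyte markers, with 0 of 10 and 0 of 3 tested called, vehicle replicate 4 was instead highest of all libraries in the mean (0.60 and 0.66). Proximal tubule markers, with 0 of 16 called, summed to 30888 to 32832 CPM with vehicle and 22981 to 36253 CPM with BRD4780. No marker of these lists was at 0 in every library.

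Medians of the other folding lists lay near 0. Of 27 other ER chaperones and co-chaperones tested, 1 was higher and 0 lower, 19 fold changes were positive, and the median was 0.03. The single call was Fkbp7, a prolyl isomerase gene of the lumen, which rose from 2.11 ± 0.36 to 5.02 ± 0.97 CPM (log2 fold change 1.246, adjusted p = 0.0175); the call was lost without vehicle replicate 2 or 3 or BRD4780 replicate 2, at adjusted p of 0.0712, 0.0523 and 0.0605. Protein disulfide isomerases and ER oxidases had 1 of 18 lower and 0 higher, with a median of -0.05. That call was Pdia4, an isomerase found in complexes with BiP, with all treated libraries (111.6 to 137.7 CPM) below all vehicle ones (154.8 to 181.9 CPM; adjusted p = 0.0354). It held without vehicle replicate 4 or BRD4780 replicate 3 and was lost without any other single library, at adjusted p of up to 0.119, and with library totals alone as scaling (0.0528). Of the 18 isomerase and oxidase genes, 10 fold changes were negative and 8 positive, from -0.46 to 0.10. In 3 of the 18 the groups did not overlap, each lower with BRD4780, against 5.16% of all genes in that direction. DESeq2 called 4 of the 18 lower and 0 higher, against 3.8% of all genes lower.

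Degradation and import genes were spread to both sides of 0. In ER-associated degradation 0 of 22 genes were called and the median was -0.02. Herpud1, a membrane component of the degradation complex and a common UPR reporter, was at 441.6 ± 28.2 and 597.6 ± 105.0 CPM, opposite in sign to Hspa5 and short of the threshold (adjusted p = 0.0747). Ube2j1, its ubiquitin-conjugating enzyme, was at 50.4 ± 1.2 and 55.9 ± 3.6 CPM (adjusted p = 0.231). Of the translocon and signal peptidase list 1 of 18 was higher, the signal recognition particle receptor gene Srpr at 147.0 ± 7.0 and 187.8 ± 16.8 CPM (adjusted p = 0.0499), with a list median of 0.00061. Srpr kept the call without BRD4780 replicate 3 and lost it without any other single library, at adjusted p of up to 0.138. With all 8 libraries it also lost it under RLE (0.0554) or upper-quartile scaling (0.0547), limma-voom (0.0561), no filter (0.0550) and thinning (0.0644), so this call sits at the threshold.

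Of 19 regulators of the UPR tested, 2 were higher and 1 lower, with a median of 0.003. Xbp1, whose spliced form drives chaperone genes, fell from 177.2 ± 29.8 to 122.1 ± 11.3 CPM (log2 fold change -0.54, adjusted p = 0.0451). Eif2ak3, which encodes the sensor kinase PERK, rose from 35.3 ± 2.2 to 47.1 ± 5.4 CPM (log2 fold change 0.41, adjusted p = 0.0489). Atf4, downstream of PERK, rose from 120.5 ± 6.4 to 183.0 ± 15.7 CPM (log2 fold change 0.60, adjusted p = 0.0106), and was called with any 1 library left out, at adjusted p of 0.000322 to 0.0475, but not without vehicle replicate 4 and BRD4780 replicate 4 together (0.0787). Xbp1 and Eif2ak3 kept the call without BRD4780 replicate 3 and lost it without any other single library, at adjusted p of up to 0.117 and 0.137. With all 8 libraries Xbp1 also lost it with library totals alone (0.0720) and limma-voom (0.0521), and Eif2ak3 with RLE (0.0509) or upper-quartile scaling (0.0524), limma-voom (0.0607) and thinning (0.0534). The splicing of Xbp1 mRNA was not measured by these counts.

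ATF4 targets were the list with most calls, 10 of 25 higher and 0 lower, with a median of 0.82. Mthfd2, which serves one-carbon metabolism in mitochondria, rose from 4.73 ± 0.64 to 27.7 ± 11.7 CPM (adjusted p = 0.00468) and kept the call in every alternative run. Aldh18a1, a proline synthesis gene, rose from 2.81 ± 0.74 to 9.68 ± 2.86 CPM (adjusted p = 0.0121). The other calls were Slc3a2, Chac1, Trib3, Asns, Pycr1, Cebpb, Phgdh and Cars, with log2 fold changes from 0.72 for Cars to 2.70 for Trib3. BRD4780 replicate 3 was the lowest treated library in all 10 and BRD4780 replicate 4 the highest in 8, as in Mthfd2 with 13.0 and 41.0 CPM. The number of ATF4 targets higher was 2 without vehicle replicate 1 or 2, 5 without vehicle replicate 3, 7 without vehicle replicate 4, 4 without BRD4780 replicate 1, and 5 without BRD4780 replicate 2 or 4. Without BRD4780 replicate 3, 18 were higher and 2 lower, where 1647 of 13558 genes were higher and 1537 (11.3%) lower. Over all genes, 310 were higher with all libraries, 54 without vehicle replicate 1 and 26 without vehicle replicate 2. Of the KDEL receptors, which return escaped lumenal proteins carrying a retrieval signal, Kdelr3 and Kdelr2 rose (log2 fold changes 2.22 and 0.47) and Kdelr1 was not called (-0.10). Kdelr3 was called with any 1 library left out, and Kdelr2 kept the call without BRD4780 replicate 3 and lost it without any other single library.

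Cytosolic heat shock genes gave a median close to that of the ER set, at -0.36. Of 23, 3 were lower and 0 higher, and 20 fold changes were negative. The calls were Dnaja1, a cytosolic HSP40 gene, from 379.4 ± 39.2 to 235.0 ± 53.2 CPM (adjusted p = 0.0421), the HSP70-HSP90 adaptor gene Stip1 and the immunophilin gene Fkbp4. In Dnaja1 the highest treated library was BRD4780 replicate 3 (312.0 CPM), not replicate 4 (228.7 CPM). The count was 1 without vehicle replicate 4, 10 without BRD4780 replicate 3 (where 11.3% of all genes were lower) and 0 without any other single library. DESeq2 called 9 lower, against 3.8% of all genes, and limma-voom called 1, where 70 of 13474 genes were lower.

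**Figure D5:**
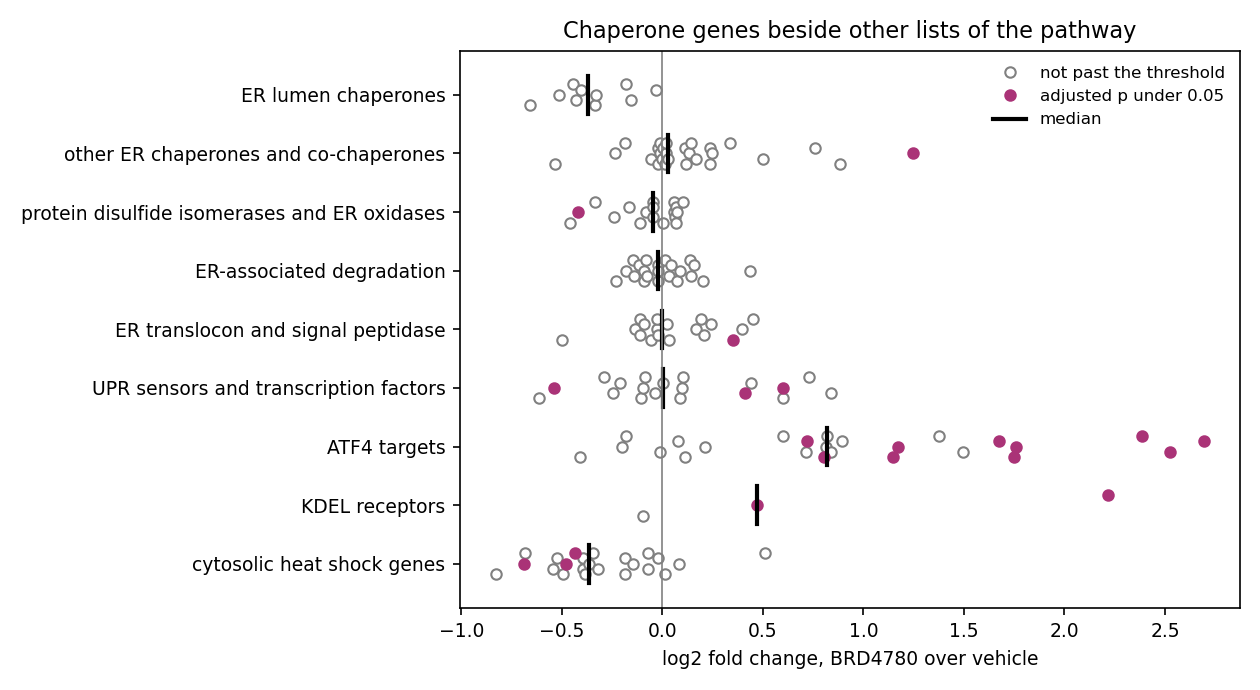
Log2 fold change of each tested gene (x axis; points) in the chaperone set and 8 other lists of the pathway (rows), with filled points at an adjusted p under 0.05 and a black bar at each median. The chaperone set has a median of -0.37 with 0 filled points, while the ATF4 targets have a median of 0.82 with 10.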

How the data were processed

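Kidney mRNA of 8 mice was sequenced after oligo-dT capture with a stranded kit, per the labels' protocols. The deposited values are expected counts of reads per gene, estimated by the authors and not normalized. The submitters' processing notes list RSEM 1.3.0, STAR 2.5.2b and Picard, with mm10 and hg19 as builds. For the annotation and strand setting, nothing is stated in the labels or notes used here. Exons of Manf overlap 2 genes on the opposite strand over 312 bases and those of Hsp90b1 overlap 1 over 415 bases. On the same strand, exons of Manf overlap 1 gene over 14 bases and those of Hsp90b1 overlap 2 over 217 bases. RSEM shares ambiguous reads among genes. Sdf2l1 and Manf had whole counts in all libraries.

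Of 22121 table lines, those of 343 repeated symbols had identical values and were collapsed to leave 21759 genes. A further 1 column of per-sample values was not used. Groups follow the treatment label, and replicate numbers follow deposition order and pair nothing. The design text gives 4 animals per arm. No 2 libraries of a group were alike within sampling noise (chi-square over its degrees of freedom at least 7.60). Expected counts were rounded, filtered with filterByExpr (minimum count 10), scaled by TMM and tested with the quasi-likelihood F-test of edgeR 4.0.16 under R 4.3.3, with no covariate and Benjamini-Hochberg adjustment over all genes. Log2 CPM used a prior count of 2. DESeq2 1.42.0, limma-voom (limma 3.58.1), other scalings, no filter, thinning and leaving out each library were alternatives. On simulated data the test called 3 of 50 genes changed 1.25-fold, 32 of 50 changed 1.5-fold and 49 of 50 changed 2-fold. The simulation drew genes independently, without shifts shared within a library, and changed only genes above the mean level of Sdf2l1. These shares therefore do not give the power for the chaperone genes in the real libraries. Transcript lengths are the median of basic coding transcripts in GENCODE M21. Named genes beyond the members are, for each list, those past the threshold, or the 2 with the smallest p, and the 5 genes most like Hspa5 at a mean log2 CPM of at least 3; Kdelr1 was added after its values were seen. The members and lists were chosen with earlier results of these data known. C-terminal retrieval signals were not analysed here.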

Additional observations from a re-analysis of the deposited data

Results flagged for a closer look

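In 2 of the 20 groups looked at (10 genes in each arm), 1 library stood far from its group mates by Dixon's test; chance flags about 1 in 20 groups. Hyou1 was at 91.9 CPM in vehicle replicate 4, below the other vehicle libraries at 111.6 to 114.4 CPM. Sdf2l1 was at 11.4 CPM in BRD4780 replicate 4, the shallowest library, above the other treated ones, which reached 7.08 CPM.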

How the results depend on the processing

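Over 17 alternatives the log2 fold change of 9 members stayed negative, and that of Dnajc3 turned to 0.039 with library totals only and 0.0082 with thinning to equal totals, and ranged from -0.10 to 0.036 when leaving out 1 library at a time (0.0022 with vehicle replicate 1 left out, and highest with BRD4780 replicate 1 left out). The cause was not tested. The median of the set ranged from -0.46 to -0.33 when leaving out 1 library at a time and was -0.55 without vehicle replicate 4 and BRD4780 replicate 4 together, where 27 genes were higher and 14 lower. DESeq2 called 850 higher and 505 lower, with 6 chaperones lower, and limma-voom 204 higher and 70 lower. Leaving out 1 library gave 26 to 1647 genes higher and 5 to 1537 lower, the lowest without vehicle replicate 2 and the highest without BRD4780 replicate 3, with 0 to 4 chaperones lower. The number before the dot in the titles, whose meaning is not given, occurs in both groups for 2 pairs of mice. With it as a replicate block, 57 genes were higher, 90 lower and 0 chaperones called. Every other mouse is alone in its block, so this fit compares the groups within these 2 pairs only. Calls lost under it cannot be told apart from the loss of the other mice. Under this replicate block ATF4 targets went from 10 to 3 higher, UPR regulators from 2 higher and 1 lower to 0, and cytosolic heat shock genes from 3 to 1 lower. Atf4 (adjusted p = 0.0783), Xbp1 (0.148), Eif2ak3 (0.248), Kdelr2 (0.119), Fkbp7 (0.114), Pdia4 (0.161) and Srpr (0.271) lost their calls with the block, and Kdelr3 kept its call (0.0449). Depth limits Sdf2l1 most.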

Other observations

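Besides the 6 chaperones, 13 tested genes had an exact ERSE in a RefSeq promoter window; 6 of their log2 fold changes were negative, the median was 0.19, and 1 (Pan2) was called higher and 0 lower. Of 7 other tested genes with ERSE-II letters, 1 fold change was negative, the median was 0.38 and 0 were called. These are descriptions with no test.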
